A study of Mus musculus with 4 samples.

Results

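The interferon response genes are a set of 50 mouse genes that cells switch on when interferon reaches them, chosen by name. A member counted as measured where the array held a probe set annotated with that gene symbol alone, and a gene's value was the mean of its probe sets. Of the 50 genes, 44 were measured, by 60 probe sets, out of 10923 genes in all. Ddx58, Ifi44, Isg15, Mx1, Tgtp1 and Xaf1 had no such probe set and are not reported, and 3 probe sets that list a member together with another gene were not used. No value set which of the 50 genes counted as measured, but the 50 were listed with earlier results of these data known.

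The samples were 4 single-colour arrays of liver RNA, 2 from siOrm mice and 2 from siControl mice. siOrm mice had received an siRNA against Orm1 as 1 injection with Invivofectamine 3.0, a lipid reagent that carries RNA to the liver. The siControl mice are named for a control siRNA, whose sequence and delivery are not stated. All mice were male C57BL6/J animals between 6 and 13 weeks old, and the series describes removal of 40% of the liver 3 days after the injection, with livers sampled 48 h after that operation. The series asks which genes depend on Orm1, an acute phase protein gene of hepatocytes, while the liver regrows. Uninjected and unoperated livers were not analysed here, so effects common to both groups, of siRNA or surgery, are not seen in the comparison. The titles of the siOrm arrays could also be read as siRNAs against Orm1 and Orm2, whereas source name and description place both in a single group. Whether an array stands for 1 mouse or for pooled mice is not stated, and the p-values therefore cover only the spread between these arrays, which may be technical.

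Interferons are secreted proteins that act through receptors coupled to JAK kinases. Type I interferons lead to a complex that holds STAT2 and IRF9 and binds the interferon-stimulated response element (ISRE) of target promoters, and interferon gamma acts through the gamma-activated site (GAS). The induced genes encode sensors of foreign RNA and DNA, enzymes that block viral replication, GTPases that attack intracellular microbes, and inhibitors that end the response. In liver, hepatocytes and Kupffer cells, the resident macrophages, both respond to interferon.

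Values are log2 signals (base 2 assumed) relative to the median of the 4 arrays for each probe set, and a difference is the siOrm mean minus the siControl mean. Because of that centring the middle pair of arrays of a single-probe-set gene stands at equal and opposite values, a zero carries no meaning of absence, and no level can be compared between genes or checked against a liver marker. Array siControl 2 stood apart from the others over all genes, where the standard deviation of its difference over genes was 0.428 from siOrm 1, 0.341 from siOrm 2 and 0.384 from siControl 1. Between the other 3 arrays it was 0.233 to 0.310. The targeted gene did not pass the test. Orm1 stood at -0.24 and -0.015 in the siOrm arrays and at 0.015 and 0.19 in the siControl arrays, a difference of -0.23 (SE 0.15, limma, adjusted p = 0.994). Its relatives lay further apart, Orm2 at -0.94 and -0.16 in siOrm and at 0.16 and 0.90 in siControl, and Orm3 at -0.31 and -0.15 in siOrm and at 0.15 and 1.20 in siControl (limma, adjusted p = 0.994 each). The family is close in sequence, so its probe sets may read each other's transcripts.

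No interferon response gene passed the test between siOrm and siControl livers. Among all 10923 genes 0 were called (0% of genes in either direction, limma, adjusted p under 0.05), and among the 44 members the adjusted p ran from 0.857 to 1. At an unadjusted p under 0.05 there were 2 members lower in siOrm (Ifi47 and Ifitm2) and 0 higher, where 2.58% and 2.18% of all genes were lower and higher at that level. The siOrm mean lay below the siControl mean in 29 members (65.9%), where it did in 47.8% of all genes, and above it in 15 (34.1%), where it did in 52.2%. The median difference over the members was -0.062, against 0.0084 over all genes. The groups did not overlap for 14 members: siOrm was the lower group in 10 (22.7%), as in 15.3% of all genes, and the higher group in 4 (9.09%), as in 17% of all genes. With 2 arrays a group, an exact permutation test of a single value could give no two-sided p under 0.333. A limma fit without siControl 1, in which siControl 2 alone stands for its group, called Ubd, Oasl1, Ifi47 and Ifih1 lower in siOrm, 4 members (9.09%) where 1.68% of all genes were called lower and 0.421% higher. A variance prior that follows the mean called 0 members, where 0.0732% of all genes were called lower and 0.0275% higher. Because the values are centred for each probe set, that mean is not a signal level.

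**Figure D1:**
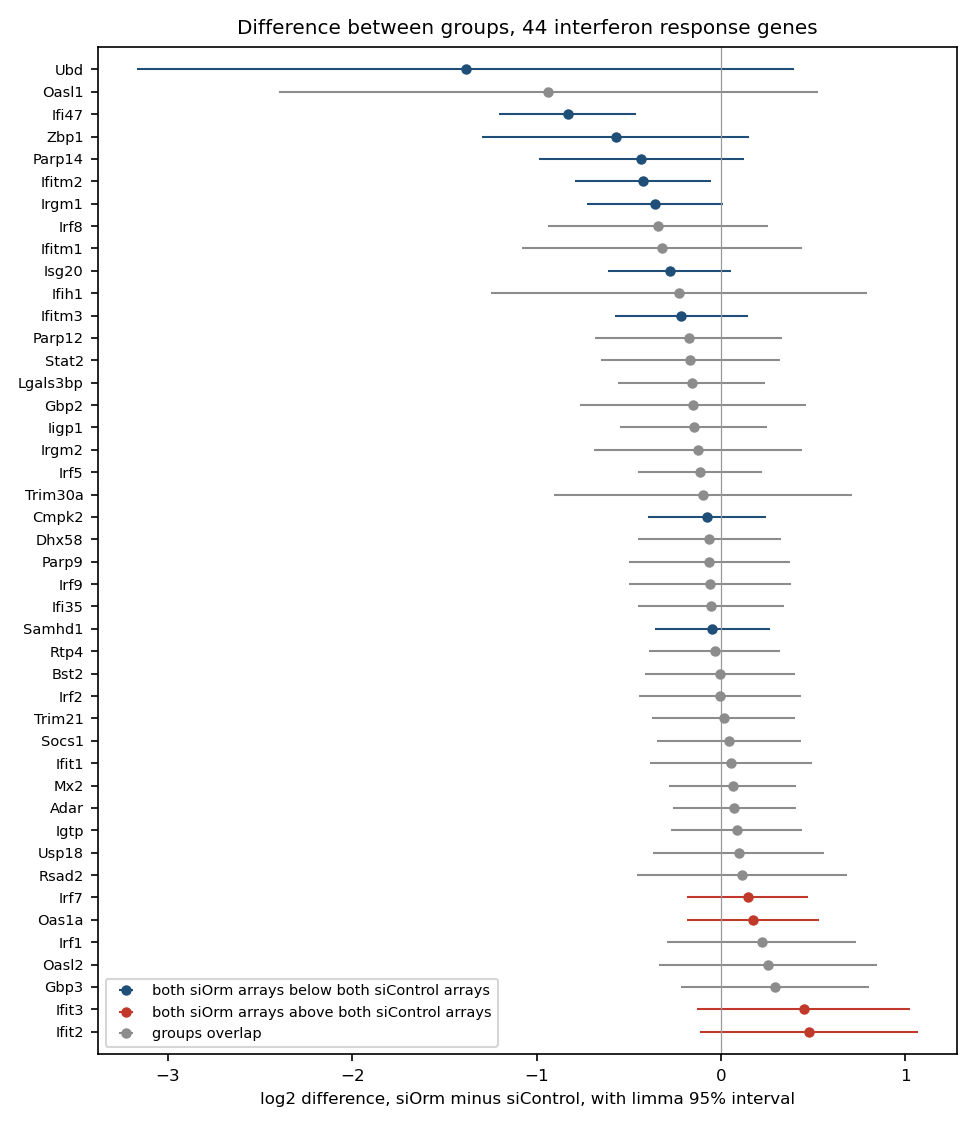
Log2 difference (siOrm minus siControl) of each of the 44 measured interferon response genes with its 95% interval from limma, ordered by value. The differences run from -1.38 (Ubd) to 0.48 (Ifit2), and the intervals of Ifi47 and Ifitm2 alone lie wholly on one side of 0.

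The arrays differed from each other in these genes more within siControl than between the groups. The mean over the 44 members was -0.022 in siOrm 1, -0.015 in siOrm 2, -0.070 in siControl 1 and 0.27 in siControl 2. siControl 2 held the highest value for 24 members (54.5%), against 28.1% of all genes. siControl 1 held the lowest value for 16 (36.4%), against 20.5% of all genes. The other highest values were in siOrm 1 for 7 members (26.4% of all genes), in siOrm 2 for 6 (18.3% of all genes) and in siControl 1 for 7 (27.2% of all genes). The other lowest values were in siOrm 1 for 13 members (28.4% of all genes), in siOrm 2 for 8 (12.3% of all genes) and in siControl 2 for 7 (38.8% of all genes). The siControl arrays lay further apart than the group means in 38 of 44 members (86.4%), against 66.9% of all genes. The median of siControl 2 minus siControl 1 was 0.30 over the members and -0.049 over all genes, while siOrm 2 minus siOrm 1 had a median of 9.0e-04 over the members. Without siControl 2 the median difference of the members was 0.0031, with 16 members separated downwards and 17 upwards. Without siControl 1 it was -0.15, with 25 downwards and 10 upwards. With 1 siControl array left, 36.8% and 31.6% of all genes separated downwards and upwards in the first case and 33.8% and 44.6% in the second.

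**Figure D2:**
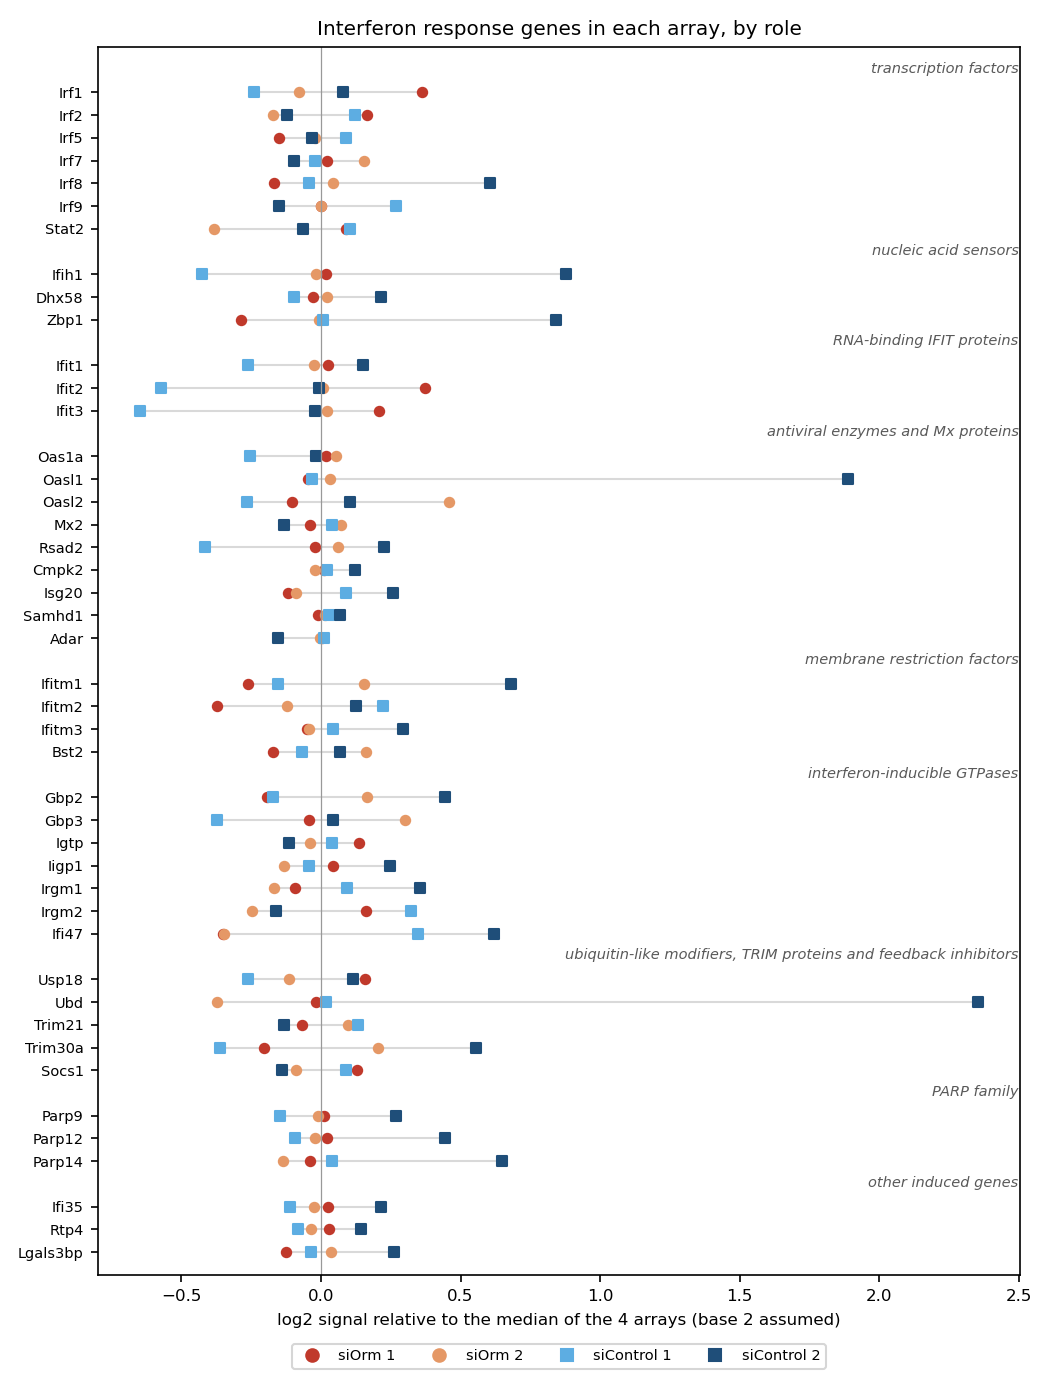
Log2 signal of each measured member relative to the median of the 4 arrays, grouped by role, with circles for siOrm arrays and squares for siControl arrays. The dark squares of siControl 2 form the right-hand end for 24 members, reaching 2.35 for Ubd and 1.89 for Oasl1.

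Macrophage markers, like the members, had their lowest mean in siControl 1 and their highest in siControl 2. Sinusoidal endothelial markers (-0.16 and 0.29) and stellate cell markers (-0.27 and 0.44) did so too. The mean of 20 measured genes of macrophages and Kupffer cells was -0.027 in siOrm 1, -0.042 in siOrm 2, -0.32 in siControl 1 and 0.72 in siControl 2. Of these, 19 of 20 were highest in siControl 2 and 15 were lowest in siControl 1, while the siOrm mean was the lower in 11 and the higher in 9. The groups did not overlap in 2 of them, where siOrm lay wholly lower in 15.3% and wholly higher in 17% of all genes. Marco, a scavenger receptor of macrophages, was the 1 with siOrm wholly lower and stood at -0.25 and -0.38 in siOrm and at 0.25 and 1.97 in siControl, and Adgre1, an adhesion receptor of macrophages, was the 1 with siOrm wholly higher, at 0.026 and 0.30 in siOrm and at -0.18 and -0.026 in siControl. Cd68, a lysosomal protein of macrophages, stood at -0.031 and 0.031 in siOrm and at -0.54 and 1.01 in siControl. Of the sinusoidal endothelial markers 9 of 12 were highest in siControl 2, as were 7 of 10 stellate cell markers and 5 of 12 neutrophil markers. Of the T and NK cell markers 0 of 9 were, and of the hepatocyte markers 2 of 11. Of the B and plasmacytoid cell markers 1 of 8 were, and of the cholangiocyte markers 1 of 4. Whether these cells had a part in the interferon gene values was not tested. In whole-liver RNA, fewer cells of a type and less RNA per cell cannot be told apart.

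**Figure D3:**
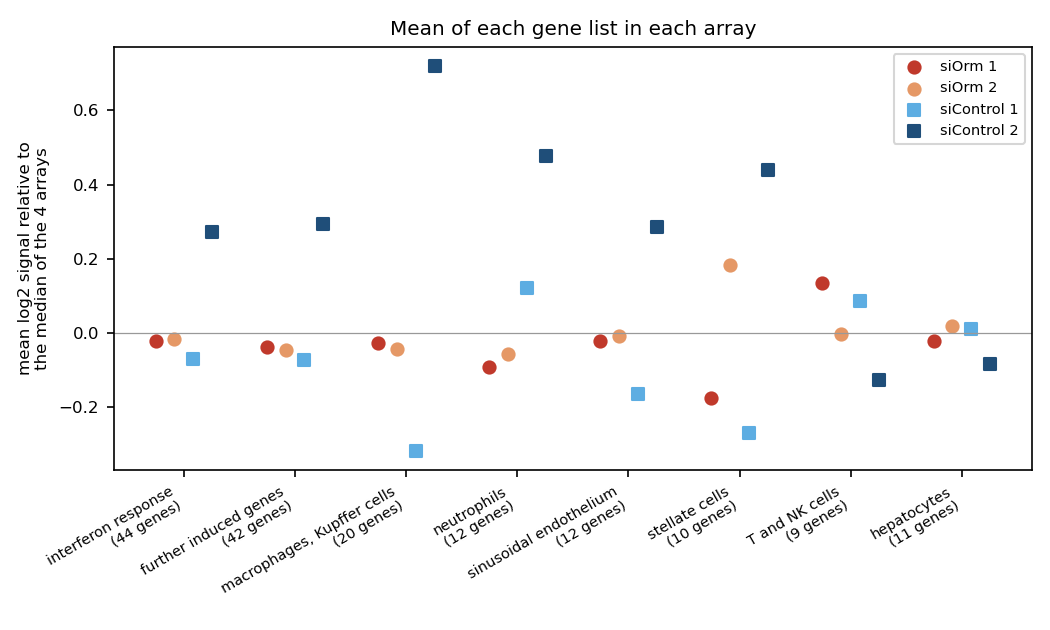
Mean log2 signal, relative to the median of the 4 arrays, of the interferon response genes, of further induced genes and of cell type marker lists in each array. The lists for B and plasmacytoid cells and for cholangiocytes are not drawn. siControl 2 is highest for the interferon response genes (0.27), further induced genes (0.29) and macrophage markers (0.72). It is also highest for neutrophil (0.48), sinusoidal endothelial (0.29) and stellate cell markers (0.44). The neutrophil median, however, was highest in siControl 1 (0.10, against 0.034 in siControl 2), and 5 of 12 neutrophil markers were highest in siControl 2. It is lowest for T and NK cell markers (-0.13) and hepatocyte markers (-0.083).

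Genes upstream of the response did not pass the test either. Of 13 interferon genes listed 5 were measured. Ifnb1, which encodes interferon beta, stood at 0.14 and 0.010 in siOrm and at -0.012 and -0.010 in siControl. Of the receptor, JAK-STAT and phosphatase genes 13 of 15 were measured, and 0 passed in either direction. Jak1, the kinase shared by both kinds of interferon receptor, stood at -0.21 and -0.11 in siOrm and at 0.070 and 0.73 in siControl, a difference of -0.56 (SE 0.24, limma, adjusted p = 0.994). Ptpn11, a phosphatase that acts on receptor signalling, lay the same way, at -0.067 and -0.032 in siOrm and at 0.056 and 0.45 in siControl, while the phosphatase gene Ptpn6 stood at 0.045 and 0.12 in siOrm and at -0.30 and -0.019 in siControl. Socs3, an inhibitor of cytokine receptors, was at -0.035 and 0.050 in siOrm, and at 0.040 and -1.32 in siControl. Here siControl 2 was the low array, whereas it was the high one for 24 of 44 members. Among 15 measured genes that sense nucleic acids or relay the signal, 0 passed. Ikbke, a kinase that activates interferon regulatory factors, had the smallest p of these, at -0.14 and -0.19 in siOrm and at 0.14 and 0.88 in siControl, a difference of -0.68 (SE 0.25, limma, adjusted p = 0.994).

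The transcription factors of the response showed small differences, none past the test, and no common array pattern. Of the 7 measured, the groups did not overlap in 1, with siOrm higher, as in 17% of all genes. That was Irf7, the factor that amplifies type I interferon production, at 0.021 and 0.15 in siOrm and at -0.021 and -0.10 in siControl. Irf1, an activator of interferon gamma targets, stood at 0.36 and -0.080 in siOrm and at -0.24 and 0.080 in siControl, so the groups overlapped (difference 0.22, SE 0.21, limma, adjusted p = 0.994). siOrm 1 was the high array, and the difference was 0.0003 without it and 0.061 without siControl 1. Irf2, which counteracts Irf1, stood at 0.16 and -0.17 in siOrm and at 0.12 and -0.12 in siControl.

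Stat2 and Irf9, which act in a common complex, were both highest in siControl 1 but lowest in different arrays. Stat2 stood at 0.091 and -0.38 in siOrm and at 0.11 and -0.065 in siControl, a difference of -0.17 (SE 0.20, limma, adjusted p = 0.999), or 0.071 without siOrm 2 and -0.40 without siOrm 1. Its low value in siOrm 2 came mainly from 1 of its 2 probe sets, which read -0.64 there. That probe set was highest in siOrm 1 (0.18, against 0.13 in siControl 1), and the other was highest in siControl 1. Irf9, the DNA-binding partner of Stat2, was at 0.0014 and -0.0014 in siOrm and at 0.27 and -0.15 in siControl. Irf5, a factor downstream of Toll-like receptors, stood at -0.15 and -0.021 in siOrm and at 0.090 and -0.034 in siControl. Irf8, a factor needed by macrophages and dendritic cells, was the 1 factor highest in siControl 2: it stood at -0.17 and 0.045 in siOrm and at -0.045 and 0.61 in siControl (difference -0.34, SE 0.24, limma, adjusted p = 0.994), and its difference was -0.017 without siControl 2 and -0.67 without siControl 1. Both of its probe sets were highest in siControl 2, at 0.63 and 0.58.

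The 3 measured sensors of foreign nucleic acid were all highest in siControl 2. Ifih1, which encodes the RNA sensor MDA5, stood at 0.019 and -0.019 in siOrm and at -0.43 and 0.88 in siControl. Its siOrm arrays lay between the siControl arrays, and the difference of -0.23 (SE 0.41, limma, adjusted p = 0.999) was 0.43 without siControl 2 and -0.88 without siControl 1. Zbp1, a sensor of Z-form nucleic acid that can trigger necroptosis, stood at -0.29 and -0.0058 in siOrm and at 0.0058 and 0.84 in siControl, a difference of -0.57 (SE 0.29, limma, adjusted p = 0.994), or -0.15 without siControl 2 and -0.99 without siControl 1. Its 2 probe sets differed by -0.64 and -0.50. The groups overlapped in the probe set with the larger difference, where siOrm 2 stood at 0.024 and siControl 1 at -0.024. In the other probe set siOrm lay wholly lower. Dhx58, a regulator of RNA sensing without signalling domains, stood at -0.030 and 0.020 in siOrm and at -0.10 and 0.21 in siControl.

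The IFIT genes, whose products bind foreign RNA and block its translation, were all lowest in siControl 1, 3 of 3, as were 16 of the 44 members. Ifit2 stood at 0.37 and 0.0060 in siOrm and at -0.58 and -0.0060 in siControl. Ifit3 stood at 0.21 and 0.021 in siOrm and at -0.65 and -0.021 in siControl. In both genes siOrm 2 and siControl 2 almost coincided, and the groups did not overlap only by the small gap between these arrays. The differences were 0.48 for Ifit2 (SE 0.24, 95% interval -0.11 to 1.07) and 0.45 for Ifit3 (SE 0.23, 95% interval -0.13 to 1.03), each with a limma adjusted p of 0.994. Without siControl 1 they were 0.19 and 0.14, without siControl 2 each was 0.76, and without siOrm 1 that of Ifit2 was 0.30. Ifit1 stood at 0.024 and -0.024 in siOrm and at -0.26 and 0.15 in siControl, so its groups overlapped.

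The promoters of the 3 IFIT genes are shown because these neighbours on chromosome 19 shared the low value in siControl 1. Sequences are from the RefSeq annotation of GRCm38.p6, from 250 bases before to 50 bases after a transcript start, read 5′ to 3′ on the gene's strand, here +. The windows are chr19:34640639-34640938 for Ifit1, chr19:34550444-34550743 for Ifit2, the first of 2 annotated starts, and chr19:34583279-34583578 for Ifit3. Capitals mark matches to the ISRE core, spelled here as GAAA, any 2 bases and GAAA again, or on the other strand TTTC, any 2 bases and TTTC, and to the GAS, TTCNNNGAA, which reads the same on both strands. ISRE matches may overlap each other.
Ifit1: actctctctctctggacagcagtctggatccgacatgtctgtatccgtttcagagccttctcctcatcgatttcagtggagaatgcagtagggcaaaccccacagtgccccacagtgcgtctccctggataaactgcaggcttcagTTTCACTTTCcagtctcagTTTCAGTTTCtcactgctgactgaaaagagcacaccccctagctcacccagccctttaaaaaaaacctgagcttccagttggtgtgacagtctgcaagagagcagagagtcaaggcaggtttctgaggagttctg
Ifit2: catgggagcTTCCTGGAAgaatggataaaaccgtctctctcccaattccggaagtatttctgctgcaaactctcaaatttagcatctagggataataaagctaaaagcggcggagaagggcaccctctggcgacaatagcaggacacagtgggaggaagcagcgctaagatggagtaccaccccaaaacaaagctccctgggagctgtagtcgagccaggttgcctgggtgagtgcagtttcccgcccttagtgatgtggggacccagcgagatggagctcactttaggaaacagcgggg
Ifit3: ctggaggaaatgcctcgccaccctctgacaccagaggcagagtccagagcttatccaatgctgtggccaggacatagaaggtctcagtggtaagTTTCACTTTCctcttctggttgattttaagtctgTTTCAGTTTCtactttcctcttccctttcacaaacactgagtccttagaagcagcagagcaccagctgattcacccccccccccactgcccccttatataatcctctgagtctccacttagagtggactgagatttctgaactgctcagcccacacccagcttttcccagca
Ifit1 held 2 ISRE matches, whose first bases lie 104 and 85 bases before the start, and Ifit3 held 2, at 156 and 122 bases before it. The Ifit2 window held 1 GAS match and no ISRE match. The promoter table held 41 of the 50 members, in 51 windows. An ISRE match was present in 22 of these 51 windows (43.1%), against 3.44% of all 32851 windows of the same length. A GAS match was present in 14 of 51 (27.5%), against 8.30% of all windows. A match is a string of letters and not a shown binding site.

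The array pattern was set beside the ISRE matches, with no test. For the 18 measured members with a match, the median difference was -0.0049 and the median of siControl 2 minus siControl 1 was 0.24. For the 18 measured members whose windows held none, these medians were -0.095 and 0.31. Of the members with a match 7 of 18 were highest in siControl 2, and of those without 11 of 18.

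The antiviral enzymes were mixed. Of 9 measured, siOrm lay wholly above siControl in 1 (17% of all genes) and wholly below it in 3 (15.3% of all genes), and 5 were highest in siControl 2 (28.1% of all genes). Oasl1, an oligoadenylate synthetase-like protein that in mouse limits translation of Irf7, stood at -0.047 and 0.032 in siOrm and at -0.032 and 1.89 in siControl. siControl 2 alone was high, and the difference of -0.94 (SE 0.59, limma, adjusted p = 0.994) was 0.025 without it and -1.90 without siControl 1. Its relative Oasl2 did not share this pattern, at -0.11 and 0.46 in siOrm and at -0.27 and 0.11 in siControl (difference 0.26, SE 0.24, limma, adjusted p = 0.994). Here siOrm 2 was the high array, and without it the difference was -0.025, against 0.072 without siControl 1 and 0.54 without siOrm 1. Oas1a, a synthetase of the oligoadenylates that activate RNase L, stood at 0.019 and 0.055 in siOrm and at -0.26 and -0.019 in siControl, a difference of 0.17 (SE 0.14, limma, adjusted p = 0.994), or 0.056 without siControl 1 and 0.29 without siControl 2.

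The nucleotide and RNA-processing enzymes did not pass the test either. Isg20, an exonuclease that degrades viral RNA, had both siOrm arrays low, at -0.12 and -0.089 in siOrm and at 0.089 and 0.26 in siControl, a difference of -0.28 (SE 0.13, limma, adjusted p = 0.994). Rsad2, which encodes viperin, a maker of a chain-terminating nucleotide, stood at -0.023 and 0.061 in siOrm and at -0.42 and 0.22 in siControl. Its chromosome 12 neighbour Cmpk2, a nucleotide kinase, stood at 0.011 and -0.022 in siOrm and at 0.022 and 0.12 in siControl, and its 2 probe sets differed in opposite directions (0.095 and -0.25). Samhd1, which depletes deoxynucleotides, stood at -0.012 and 0.014 in siOrm and at 0.027 and 0.067 in siControl. Its 4 probe sets ran from -0.23 to 0.16, so the separation of its means is not shared by its probe sets. Adar, the adenosine deaminase that edits double-stranded RNA, stood at 0.0022 and -0.0022 in siOrm and at 0.011 and -0.16 in siControl. Mx2, a dynamin-like GTPase, was likewise close, at -0.038 and 0.071 in siOrm and at 0.038 and -0.13 in siControl.

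**Figure D4:**
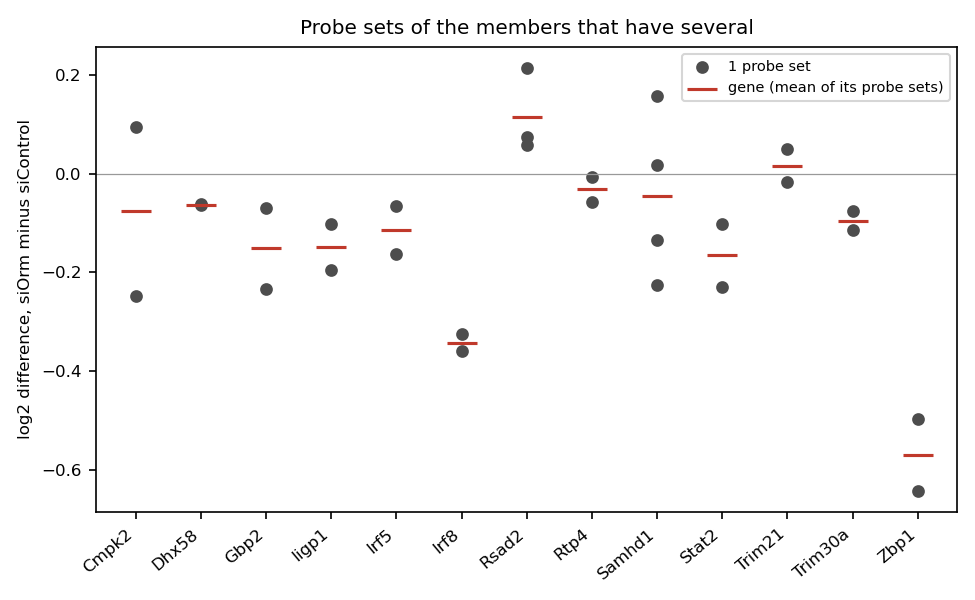
Log2 difference (siOrm minus siControl) of each probe set, as points, for the 13 members measured by several, with the gene's mean as a bar. The probe sets lie on one side of 0 in 10 of these genes and on both sides in Cmpk2, Samhd1 and Trim21.

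Of the membrane proteins that block virus entry or release, Ifitm2 and Ifitm3 had siOrm values wholly below those of siControl. That was 2 of 4 measured, against 15.3% of all genes. Ifitm2 stood at -0.37 and -0.12 in siOrm and at 0.22 and 0.12 in siControl. The high array here was siControl 1, not siControl 2. Its difference was -0.42 (SE 0.15, 95% interval -0.79 to -0.053, limma, adjusted p = 0.994), or -0.47 without siControl 2 and -0.30 without siOrm 1. Ifitm3, which acts in endosomes, stood at -0.048 and -0.044 in siOrm and at 0.044 and 0.29 in siControl (difference -0.22, SE 0.15, limma, adjusted p = 0.994), or -0.090 without siControl 2 and -0.34 without siControl 1. Ifitm1 overlapped between the groups, at -0.26 and 0.15 in siOrm and at -0.15 and 0.68 in siControl (difference -0.32, SE 0.31, limma, adjusted p = 0.996), and its difference was 0.10 without siControl 2 and -0.74 without siControl 1. Bst2, the tetherin that holds budding virus on the cell, stood at -0.17 and 0.16 in siOrm and at -0.067 and 0.067 in siControl.

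Among the interferon-inducible GTPases, which act on the vacuoles of intracellular pathogens, Ifi47 had the smallest p of all members. It stood at -0.35 in both siOrm arrays and at 0.35 and 0.62 in siControl. The groups were further apart than the arrays within either group. The difference was -0.83 (SE 0.15, 95% interval -1.20 to -0.46), with an unadjusted p of 0.00175 and an adjusted p of 0.857 in limma, so it did not pass over all genes. It was -0.69 without siControl 2 (adjusted p = 0.419, limma), -0.97 without siControl 1 (adjusted p = 0.0369, limma), -0.83 without either siOrm array and -0.86 after quantile normalization (adjusted p = 0.456, limma). Over all its alternatives the adjusted p ran from 0.0369 to 1. Irgm1, a regulator of the other immunity-related GTPases, lay the same way, at -0.094 and -0.17 in siOrm and at 0.094 and 0.35 in siControl (difference -0.35, SE 0.15, limma, adjusted p = 0.994), or -0.22 without siControl 2.

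The other 5 measured GTPases overlapped between the groups, so siOrm lay wholly below siControl in 2 of 7, against 15.3% of all genes. Gbp2, a guanylate-binding protein, stood at -0.19 and 0.16 in siOrm and at -0.17 and 0.44 in siControl. Gbp3 stood at -0.043 and 0.30 in siOrm and at -0.37 and 0.043 in siControl, a difference of 0.29 (SE 0.20, limma, adjusted p = 0.994). It was 0.085 without siControl 1 and 0.12 without siOrm 2, and 0.50 without siControl 2 and 0.47 without siOrm 1. The difference of Gbp2 was negative and that of Gbp3 positive, neither past the test. Igtp stood at 0.13 and -0.039 in siOrm and at 0.039 and -0.12 in siControl. Irgm2, a relative of Irgm1, stood at 0.16 and -0.25 in siOrm and at 0.32 and -0.16 in siControl. In both genes siControl 2 was among the low arrays. Iigp1 stood at 0.043 and -0.13 in siOrm and at -0.043 and 0.25 in siControl.

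The promoters of Ifi47, Irgm1 and Ifitm2 are shown because these members had the smallest p-values. The windows are chr11:49076337-49076636 on the + strand for Ifi47, chr11:48871371-48871670 on the - strand for Irgm1 and chr7:140955912-140956211 on the - strand for Ifitm2, from RefSeq on GRCm38.p6, with the same meaning of capitals.
Ifi47: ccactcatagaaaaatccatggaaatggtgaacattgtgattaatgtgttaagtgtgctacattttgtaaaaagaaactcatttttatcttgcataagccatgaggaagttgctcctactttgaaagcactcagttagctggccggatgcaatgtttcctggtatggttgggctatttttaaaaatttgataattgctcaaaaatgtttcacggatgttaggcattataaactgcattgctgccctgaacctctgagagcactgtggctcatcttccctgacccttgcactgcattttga
Irgm1: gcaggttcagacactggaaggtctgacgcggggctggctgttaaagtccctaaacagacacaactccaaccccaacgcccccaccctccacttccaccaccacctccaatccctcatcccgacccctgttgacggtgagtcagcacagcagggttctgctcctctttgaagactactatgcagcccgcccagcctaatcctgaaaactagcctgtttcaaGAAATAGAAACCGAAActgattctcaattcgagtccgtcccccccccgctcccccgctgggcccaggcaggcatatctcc
Ifitm2: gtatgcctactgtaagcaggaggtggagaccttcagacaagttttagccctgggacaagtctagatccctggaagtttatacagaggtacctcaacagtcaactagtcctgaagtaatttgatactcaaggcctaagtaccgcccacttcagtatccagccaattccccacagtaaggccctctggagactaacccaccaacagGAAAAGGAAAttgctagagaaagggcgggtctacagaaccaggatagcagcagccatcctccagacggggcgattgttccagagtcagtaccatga
Irgm1 held 2 overlapping ISRE matches, which begin 30 and 24 bases before the start, and Ifitm2 held 1, which begins 46 bases before it. The Ifi47 window held neither motif as spelled here, so these 3 members did not share a match.

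Ubd had the largest difference and the largest error of all members. It encodes a ubiquitin-like modifier that sends proteins to the proteasome and is induced by interferon gamma and tumour necrosis factor. It stood at -0.020 and -0.37 in siOrm and at 0.020 and 2.35 in siControl. siControl 2 alone was high, and siControl 1 lay beside siOrm 1. The difference was -1.38 (SE 0.72, 95% interval -3.17 to 0.40, limma, adjusted p = 0.994) and was -0.22 without siControl 2 and -2.55 without siControl 1.

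The other regulators of this group overlapped between siOrm and siControl. Usp18, a protease that removes Isg15 and also blocks the type I receptor, stood at 0.16 and -0.11 in siOrm and at -0.26 and 0.11 in siControl. Socs1, an inhibitor of JAK kinases, stood at 0.13 and -0.089 in siOrm and at 0.089 and -0.14 in siControl. Neither feedback inhibitor separated the groups. Trim21, a cytosolic antibody receptor, stood at -0.067 and 0.10 in siOrm and at 0.13 and -0.13 in siControl, and its 2 probe sets disagreed about which arrays were high. Trim30a, a TRIM protein of macrophages, stood at -0.21 and 0.21 in siOrm and at -0.36 and 0.55 in siControl, and both of its probe sets placed siControl 2 highest and siControl 1 lowest.

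The PARP proteins, which attach ADP-ribose to targets, were all highest in siControl 2. Parp14 stood at -0.039 and -0.14 in siOrm and at 0.039 and 0.65 in siControl, a difference of -0.43 (SE 0.22, limma, adjusted p = 0.994), or -0.13 without siControl 2 and -0.74 without siControl 1. Parp12 stood at 0.022 and -0.022 in siOrm and at -0.094 and 0.44 in siControl (difference -0.18, SE 0.20, limma, adjusted p = 0.999), or 0.094 without siControl 2 and -0.44 without siControl 1. Parp9, a partner of an E3 ligase in interferon signalling, stood at 0.010 and -0.010 in siOrm and at -0.15 and 0.27 in siControl. In Parp9 and Parp12 the siOrm arrays lay between the siControl arrays.

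The last 3 measured members were also highest in siControl 2. Ifi35 stood at 0.026 and -0.026 in siOrm and at -0.11 and 0.22 in siControl. Rtp4, a chaperone of receptors that restrains the response, stood at 0.030 and -0.034 in siOrm and at -0.082 and 0.14 in siControl, but of its 2 probe sets 1 was highest in siControl 2 and 1 in siControl 1. Lgals3bp, a secreted galectin-binding protein, stood at -0.13 and 0.037 in siOrm and at -0.037 and 0.26 in siControl. All 3 overlapped between the groups.

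Interferon-induced genes outside the 50 were also mostly highest in siControl 2. Of 60 listed 42 were measured and 0 passed the test. In 10 the siOrm values lay wholly below those of siControl (15.3% of all genes) and in 1 wholly above (17% of all genes), and 27 were highest in siControl 2 (28.1% of all genes). Cxcl9, a chemokine induced by interferon gamma, stood at -0.59 and -0.10 in siOrm and at 0.10 and 2.51 in siControl (difference -1.65, SE 0.75, limma, adjusted p = 0.994). Eif2ak2, the RNA-dependent kinase that stops translation, stood at -0.19 and -0.035 in siOrm and at -0.014 and 0.68 in siControl. Plscr1, a scramblase-family protein, stood at -0.59 and -0.11 in siOrm and at 0.11 and 0.42 in siControl. Pnp, a purine nucleoside phosphorylase, had the smallest p of this list, at -0.46 and -0.20 in siOrm and at 0.20 and 0.30 in siControl (difference -0.58, SE 0.15, limma, adjusted p = 0.994). Like Ifitm2, it kept the siControl arrays close to each other (siControl 2 minus siControl 1 was 0.10 for Pnp and -0.099 for Ifitm2).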

How the data were processed

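The labels place 2 arrays in siOrm and 2 in siControl. Per the text of the series the array was the Affymetrix 430A 2.0 mouse array, while the labels' protocols describe another maker's labelling and cultured cells. The deposited table holds 18852 probe sets as values that the authors had put on a log scale, taken as log2, with each probe set's median over the 4 arrays at 0 (largest deviation 4.8e-07). No normalization, software or logarithm base is given in the sources used here. Signal over background cannot be seen, so no background correction, dim filter or slide block could be varied, and the number of arrays limits the precision.

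Of the probe sets 17209 had 1 gene symbol in the platform annotation, 564 had several, 1044 were not listed and stay unnamed, and 35 were controls. They gave 10923 genes (10907 found by gene number in the GRCm38.p6 gene table). limma 3.58.1 in R 4.3.3 (lmFit, eBayes, constant variance prior, two-sided, Benjamini-Hochberg over all genes, threshold 0.05) was fitted to all genes and tested on simulated data. The members, lists and alternatives were chosen with earlier results of these data known. All measured members are named; differences with errors are given for members with an unadjusted p under 0.05 and then the largest, 20 in all, and up to 4 genes of each pathway list were eligible by p. Marco, Adgre1 and Cd68 were named after their values were seen. Alternatives were a variance prior with a trend, quantile normalization, centring of arrays, medians of probe sets, omission of probe sets ending in _s_at, _x_at or _a_at, omission of each array, and a replicate block.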

Additional observations from a re-analysis of the deposited data

How the results depend on the processing

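Over all genes, 0 calls stood under quantile normalization, centring of arrays, medians of probe sets, omission of shared-sequence probe sets and the replicate block. With a trend in the variance prior 11 genes were called, 0 of them members. The trend follows the mean of centred values and not the signal level. When each array was left out, the calls ran from 0 to 229. The 229 came without siControl 1, where siControl 2 alone stands for its group and is assumed to vary like the siOrm arrays; they included 4 members, Ubd (-2.55, adjusted p = 0.00615), Oasl1 (-1.90, 0.00679), Ifi47 (-0.97, 0.0369) and Ifih1 (-0.88, 0.0459), all limma. The median difference of the members ran from -0.15 to 0.0031 over the left-out arrays and from -0.10 to -0.018 over the other settings. Leaving out an array leaves 3 arrays to separate. Members separated downwards then numbered 14 without siOrm 1 (23.5% of all genes) and 17 without siOrm 2 (32.4%). They numbered 25 without siControl 1 (33.8%) and 16 without siControl 2 (36.8%). Upwards, in the same order, they numbered 8 (29.2%), 9 (32.4%), 10 (44.6%) and 17 (31.6%). Members separated downwards numbered 6 of 33 without shared-sequence probe sets (14.8% of all genes). Directions reversed without siControl 2 in Ifih1 (0.43), Ifitm1 (0.10, range from -0.74), Parp12 (0.094, range from -0.44) and Oasl1 (0.025), and without siOrm 2 in Oasl2 (-0.025, range to 0.54) and Stat2 (0.071, range from -0.40), the ranges being over the left-out arrays. The cause was not tested. In the other 186 comparisons of a named member with an alternative, direction and call were as reported, but quantile normalization moved 8 differences by over 1.5 times, to -0.036 for Ifih1, -0.082 for Ifitm1, -0.082 for Parp12, -0.18 for Irf8, -0.35 for Zbp1, -0.47 for Oasl1, -0.32 for Stat2 and 0.47 for Oasl2. Quantile normalization was run on the centred values. It gives all 4 arrays, siControl 2 included, the same spread of values over probe sets. The count of members highest in siControl 2 was chosen after seeing the data. It was 21 under quantile normalization (25.5% of all genes), 24 after centring of arrays (32.1%) and 24 with medians of probe sets (27.7%). Without shared-sequence probe sets it was 21 of 33 (27.2% of all genes). With the replicate number as a block 0 genes were called. The deviations of the like-numbered arrays from their group means correlated at 0.13 over the 10923 genes, which all come from the same 4 arrays, and with 2 pairs the numbers were not taken to pair the arrays. A base of the logarithm other than 2 would rescale every value. With 2 arrays a group, and siControl 2 apart from the other arrays, the errors are wide, and signal over background cannot be seen in centred values.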
